A study of Mus musculus with 39 samples.

Results

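MHC class I genes of mouse parathyroid glands are described here: H2-K1, H2-D1, H2-Q1, H2-Q2, H2-Q4, H2-Q6, H2-Q7, H2-T22, H2-T23 and B2m, which are 10 of the 27179 gene IDs counted. The group was chosen by the H2-Q1 counts, which were much higher in Bmal1 knockout libraries, and by family, so the H2-Q1 difference between genotypes is a description and carries no test. All 10 had enough counts to enter the tests across genes. The 9 H2 members lie on chromosome 17 and B2m on chromosome 2.

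Class I molecules sit on the surface of nearly all nucleated cells and show peptides made inside the cell to CD8 T cells. Each molecule pairs a heavy chain, encoded in the mouse by the H2 genes, with the small chain beta-2 microglobulin, encoded by B2m. H2-K1 and H2-D1 are classical heavy chains, which present many different peptides and differ strongly between strains. The H2-Q and H2-T genes are nonclassical: H2-T23 encodes Qa-1, which signals to receptors on natural killer cells, H2-T22 encodes a ligand of some gamma delta T cells, and H2-Q7 belongs to the Qa-2 group. Interferons and the factors NF-kB and NLRC5 raise transcription of many class I genes, and lymphocytes make more class I than most other cells.

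RNA was sequenced from parathyroid glands, which secrete parathyroid hormone, of 18 KO and 21 WT samples. KO mice were PTHcre;Bmal1 flox/flox, with Cre recombinase under the human parathyroid hormone promoter, and WT mice were Bmal1 flox/flox littermates without Cre, so both groups carried floxed exon 8 of Bmal1 (gene symbol Arntl), a transcription factor of the circadian clock. The parent lines were B6.129S4(Cg)-Arntltm1Weit/J and 129;FVB-Tg(PTH-cre)4167Slib/J, and the mice were males of 11 weeks, with glands of 2 mice pooled in each sample. Samples were taken 4 h apart at 6 zeitgeber times (ZT, hours from lights on), with 3, 3, 3, 2, 3 and 4 KO libraries and 3, 4, 2, 3, 5 and 4 WT libraries at ZT0, 4, 8, 12, 16 and 20. The labels give no strain of origin of the H2 region for any sample, so a difference by genotype and a difference in H2 strain cannot be told apart.

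Libraries held 38111766 to 68938704 counts (median 55836787). The summed level of 8 parathyroid markers, among them Pth, Gcm2 and Casr, ran from 178000 to 247000 CPM (counts scaled to library size) in KO and from 185000 to 354000 CPM in WT. Of the 8, 0 passed the genotype test (edgeR adjusted p below 0.05), where 7.69% of all genes did, which does not show equal levels. Arntl, whose whole-gene count includes exons outside the deleted one, overlapped over all times (7.93 to 31.3 CPM in KO and 2.09 to 41.9 CPM in WT). It did not overlap at ZT0 (20.1 to 31.3 CPM in KO, 39.7 to 41.9 CPM in WT), ZT4 (18.9 to 20.6 in KO, 26.9 to 34.4 in WT) and ZT12 (8.21 to 12.6 in KO, 2.09 to 4.47 in WT), and it overlapped at ZT8, ZT16 and ZT20. Tissue content varied widely between libraries. Thyroid follicle genes summed to 4.71 to 33100 CPM in KO (median 8170) and 2.17 to 61500 CPM in WT (median 8300), and a list of 20 T cell genes to 14.1 to 641 CPM in KO (median 49.0) and 11.0 to 1580 CPM in WT (median 14.4). The 12 libraries with the highest T cell score (the mean log2 CPM of that list) were 6 KO and 6 WT. Their part is given beside the results it touches.

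The heavy chain genes resemble each other closely, which bears on every count given here. Over aligned coding bases of the GENCODE M21 transcripts (GRCm38), identity between pairs of the 9 heavy chains ran from 74.1% for H2-D1 and H2-T22 to 95.4% for H2-Q6 and H2-Q7. H2-Q1 was 77.5% to 88.2% identical to the other members, with H2-D1 the closest. The stretch shown next is the 60 bases of H2-Q1 coding sequence (coding bases 738 to 797) that the others share most, within the third extracellular domain. Capitals mark a base that differs from H2-Q1.
H2-Q1: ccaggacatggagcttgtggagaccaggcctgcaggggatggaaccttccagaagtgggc
H2-D1: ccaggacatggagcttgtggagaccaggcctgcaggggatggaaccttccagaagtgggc
H2-Q2: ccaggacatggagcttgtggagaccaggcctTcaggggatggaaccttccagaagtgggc
H2-Q4: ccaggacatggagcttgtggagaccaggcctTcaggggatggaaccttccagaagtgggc
H2-K1, H2-Q6, H2-Q7, H2-T22 and H2-T23 have the same 60 bases as H2-Q1, and H2-Q2 and H2-Q4 each differ by 1 base. A read inside such a stretch cannot be given to 1 gene. Of all 100-base stretches of the longest coding transcript, 13.1% in H2-Q1, 21.9% in H2-Q7, 14.2% in H2-T22 and 10.8% in H2-Q6 also occur in transcripts of another gene, against 0.0% in H2-K1, H2-Q2 and B2m. H2-D1 (4.6%), H2-Q4 (2.7%) and H2-T23 (7.3%) lie between. How reads with several matches were counted is unknown here, and levels of H2-Q6, H2-Q7, H2-T22 and H2-Q1 are therefore the least certain.

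H2-Q1 (gene ID 15006, chr17:35320525-35328142, GRCm38.p6) was the member with the largest genotype difference and the lowest WT level. Its libraries held 0.371 to 11.1 CPM in KO (median 3.63) and 0 to 1.76 CPM in WT (median 0.445). Of the KO libraries, 13 of 18 lay above the highest WT library, 5 lay within the WT range, and 10 of 21 WT libraries lay below the lowest KO library. The mean was 4.22 ± 3.04 CPM in KO (SD, n = 18) and 0.481 ± 0.519 CPM in WT (SD, n = 21), a fitted log2 fold change of 3.47 ± 0.54 (SE). It was 3.96 without the 12 T cell-rich libraries, 3.12 to 3.96 over all 12 alternative fits and 3.31 to 3.63 with each library left out. In counts, the KO libraries held 4467 for H2-Q1 in total and the WT libraries 536.

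The KO libraries were not alike. The 5 within the WT range were ZT8 replicate 2 (0.371 CPM of H2-Q1), ZT20 replicate 4 (0.553 CPM), ZT16 replicate 2 (0.940 CPM), ZT16 replicate 3 (1.37 CPM) and ZT0 replicate 3 (1.48 CPM). The highest KO library was ZT20 replicate 2, with 11.1 CPM, and the highest WT libraries were ZT16 replicate 3 with 1.76 CPM and ZT16 replicate 4 with 1.48 CPM. Both of those WT libraries also held the highest T cell scores, 5.39 and 5.97. Even in KO the gene was minor: per kilobase of exon H2-Q1 reached 1.47 ± 1.06 CPM in KO and 0.168 ± 0.182 CPM in WT, where H2-D1 stood at 69.6 ± 12.2 CPM per kilobase in KO and 63.2 ± 12.6 in WT.

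**Figure D1:**
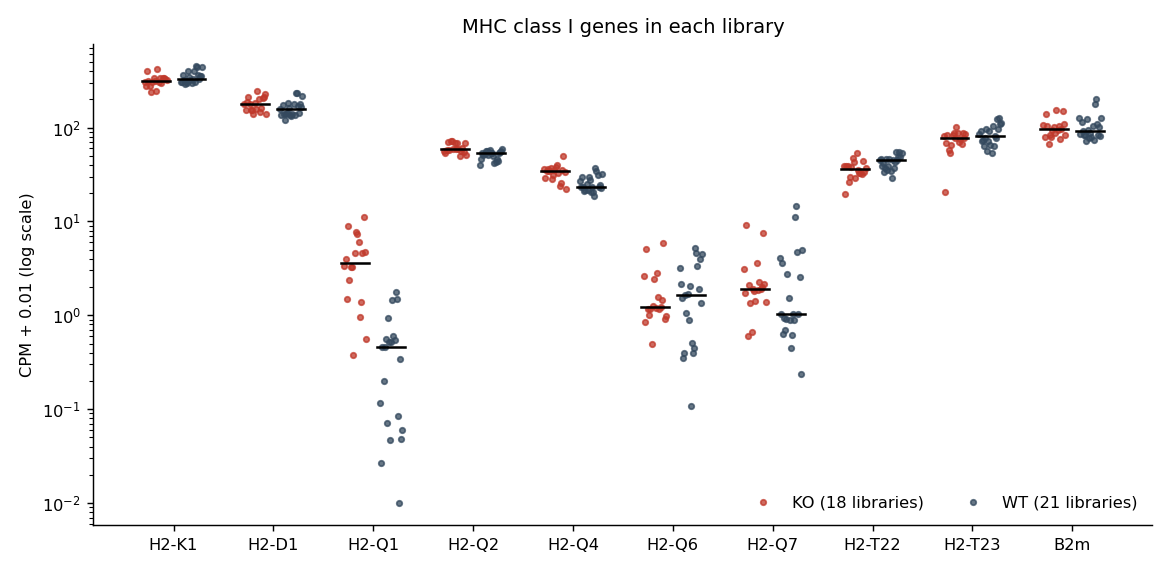
Level of each MHC class I gene in every library, in CPM + 0.01 on a log axis, with KO libraries (red) left of WT libraries (dark blue) and the group median as a bar. H2-Q1 is the gene whose groups lie farthest apart, with medians of 3.63 CPM in KO and 0.445 CPM in WT, and the WT library at 0 is drawn at the bottom.

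Of the 9 members other than H2-Q1, 2 were higher in KO, H2-Q2 and H2-Q4, and 0 were lower at an edgeR adjusted p below 0.05. Of all 18661 genes tested, 7.69% were called (3.58% higher and 4.11% lower in KO). The median log2 fold change was 0.09 over the 10 members and 0.001 over all genes. Because this contrast chose the members, nothing is read from these shares. The CPM ranges of KO and WT overlapped for every member, whereas 0.0322% of all genes tested had ranges that did not overlap.

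H2-Q2, a nonclassical heavy chain gene near H2-Q1 (chr17:35342307-35346764), rose in KO, with the smallest SE of the log2 fold change of any member. It had 49.6 to 72.0 CPM in KO (median 58.8) and 39.4 to 59.0 CPM in WT (median 53.0). The groups overlapped in part: 9 of 18 KO libraries lay above the highest WT library and 7 of 21 WT libraries below the lowest KO library. The log2 fold change was 0.24 ± 0.04 (SE; edgeR adjusted p = 0.00022). H2-Q4 (chr17:35379617-35384674) rose by more, with 21.9 to 49.9 CPM in KO (median 34.6) and 18.6 to 37.2 CPM in WT (median 23.5). Only 3 KO libraries exceeded the highest WT library, and that library, WT ZT16 replicate 3, was T cell-rich. The log2 fold change of H2-Q4 was 0.39 ± 0.09 (SE; edgeR adjusted p = 0.00549). Both genes kept their call in all 12 alternative fits and with each library left out, at log2 fold changes of 0.22 to 0.28 for H2-Q2 and 0.31 to 0.43 for H2-Q4. These fits reuse the same libraries, and the members were chosen with earlier results of these data known, so they are not independent evidence.

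H2-Q6 and H2-Q7, the most similar pair, did not pass the test. H2-Q6 had 0.488 to 5.91 CPM in KO (median 1.21) and 0.0972 to 5.25 CPM in WT (median 1.64), with a log2 fold change of 0.02 ± 0.36 (SE; edgeR adjusted p = 0.982). H2-Q7 had 0.585 to 9.19 CPM in KO (median 1.91) and 0.228 to 14.5 CPM in WT (median 1.03), with a log2 fold change of 0.29 ± 0.39 (SE; edgeR adjusted p = 0.714). The spread within each genotype was many times the difference for both, and the sign of both turned when the T cell score was added to the fit.

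The classical genes carried most of the class I RNA and differed little by genotype. H2-K1 (chr17:33996012-34000619) had 241 to 419 CPM in KO (median 313) and 288 to 454 CPM in WT (median 331), with 4 KO libraries below the lowest WT library. Its log2 fold change was -0.14 ± 0.06 (SE; edgeR adjusted p = 0.173). H2-D1 (chr17:35263094-35267497) had 138 to 245 CPM in KO (median 179) and 121 to 236 CPM in WT (median 159), with 17 of 18 KO libraries inside the WT range. Its log2 fold change was 0.15 ± 0.08 (SE; edgeR adjusted p = 0.276). With the T cell score as a covariate H2-K1 was called lower in KO, at -0.18 (edgeR adjusted p = 0.0271), and H2-D1 was not called in any alternative fit.

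H2-K1 and H2-D1 had fold changes of opposite sign, neither past the test, and their ratio separated many libraries. H2-D1 over H2-K1 was 0.415 to 0.686 in KO (median 0.590) and 0.421 to 0.538 in WT (median 0.465), and 13 of 18 KO libraries exceeded every WT library. H2-Q4 over H2-K1 was 0.0679 to 0.156 in KO (median 0.104) and 0.0519 to 0.0890 in WT (median 0.0739), with 14 KO libraries above every WT library. A ratio within a library shows unequal change and not which gene moved. Ratios of gene pairs outside the members were not computed, so these counts of libraries have no background share and carry no test. The 3 KO libraries lowest in H2-Q1 also had the lowest H2-D1 over H2-K1 ratios of the KO group: 0.415 in ZT8 replicate 2, 0.433 in ZT20 replicate 4 and 0.435 in ZT16 replicate 2. The remaining KO libraries within the WT range of H2-Q1 had ratios of 0.471 (ZT0 replicate 3) and 0.542 (ZT16 replicate 3).

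**Figure D2:**
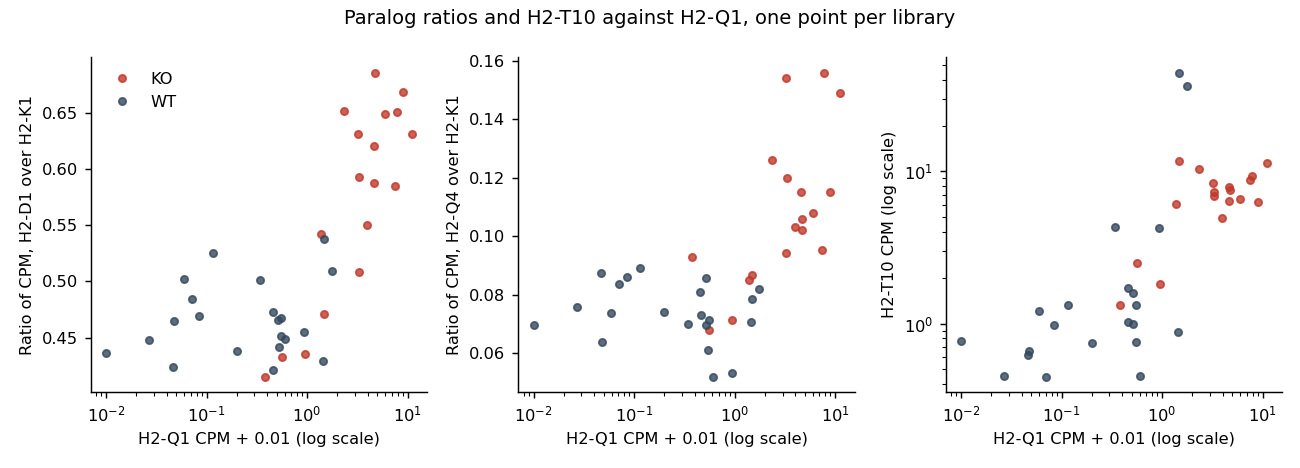
H2-D1 over H2-K1 (left), H2-Q4 over H2-K1 (middle) and H2-T10 CPM on a log axis (right) against H2-Q1 CPM + 0.01 on a log axis, 1 point per library, KO in red and WT in dark blue. KO libraries with H2-Q1 below 1 CPM have ratios of 0.415 to 0.435 in the left panel, near the low end of the WT range of 0.421 to 0.538.

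The nonclassical T genes had lower means in KO, without passing the test. H2-T22 had 19.4 to 53.4 CPM in KO (median 36.3) and 29.3 to 54.7 CPM in WT (median 44.7), with 3 KO libraries below the lowest WT library. Its log2 fold change was -0.26 ± 0.09 (SE; edgeR adjusted p = 0.0705). H2-T23 had 20.7 to 102 CPM in KO (median 76.7) and 53.4 to 126 CPM in WT (median 81.4), with a log2 fold change of -0.20 ± 0.12 (SE; edgeR adjusted p = 0.370). One library, KO ZT0 replicate 2, was lowest for both genes, with 19.4 CPM of H2-T22 and 20.7 CPM of H2-T23. H2-T22 was near the threshold: it was called lower in KO with the T cell score as a covariate (log2 fold change -0.31, edgeR adjusted p = 0.0308), by DESeq2 (-0.26, adjusted p = 0.0408) and without KO ZT12 replicate 2 (-0.33, edgeR adjusted p = 0.008).

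B2m (chr2:122147687-122153082), the shared small chain, had 66.1 to 154 CPM in KO (median 95.4) and 71.3 to 203 CPM in WT (median 92.8). Nearly all libraries overlapped, with 17 of 18 KO libraries inside the WT range, and the log2 fold change was -0.02 ± 0.12 (SE; edgeR adjusted p = 0.944).

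**Figure D3:**
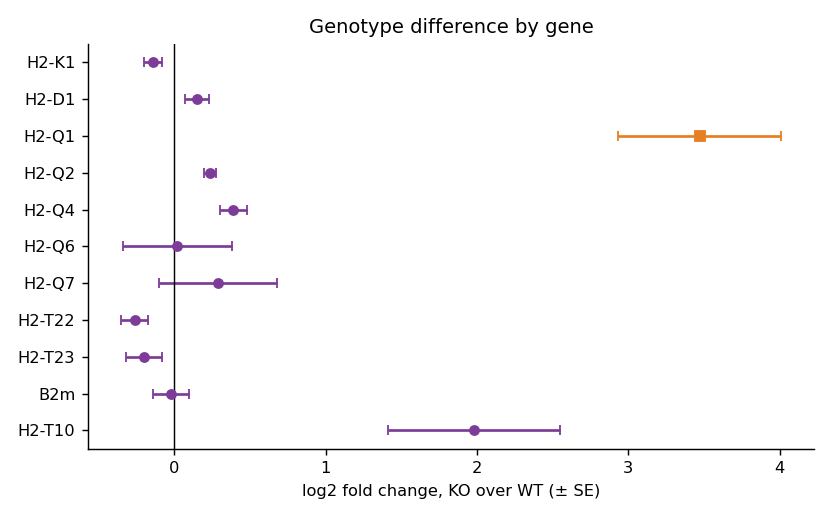
Log2 fold change of KO over WT with its SE for the 10 members and H2-T10, from the fit across all genes with time as a factor. H2-Q1 (orange square, 3.47) chose the group and is shown without a test, and H2-K1, H2-T22, H2-T23 and B2m lie at or below 0.

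Summed over the 9 heavy chain genes, class I RNA was nearly level between genotypes. The sum was 562 to 941 CPM in KO (mean 708 ± 91.3, SD, n = 18) and 582 to 922 CPM in WT (mean 721 ± 102, SD, n = 21), a ratio of means of 0.983. H2-K1 made up 44.6% ± 3.47 of the sum in KO and 48.2% ± 2.32 in WT, and H2-D1 made up 25.3% ± 2.54 in KO and 22.5% ± 1.55 in WT. The 5 H2-Q genes together had 76.0 to 130 CPM in KO (mean 103 ± 14.5) and 62.8 to 101 CPM in WT (mean 81.9 ± 9.68), and 12 of 18 KO libraries exceeded every WT library. H2-Q1 itself contributed 0.584% ± 0.394 of the heavy chain sum in KO and 0.0655% ± 0.0660 in WT. Sums over members carry no test, since the members were chosen with these values known.

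Per kilobase of exon, B2m (117 ± 28.8 CPM in KO, 120 ± 38.8 in WT) and H2-K1 (107 ± 15.2 in KO, 118 ± 17.4 in WT) stood highest and did not differ beyond their spread. H2-D1 followed, then H2-Q2 (27.9 ± 3.28 in KO, 23.4 ± 2.56 in WT) and H2-T23 (25.5 ± 6.16 in KO, 29.5 ± 7.26 in WT), whose order changed with genotype. H2-T22 lay below H2-Q4 in KO, where H2-Q4 had 12.9 ± 2.48, and above it in WT, where H2-T22 had 12.6 ± 2.09 and H2-Q4 9.87 ± 1.94. H2-Q6 and H2-Q7 were below 1 CPM per kilobase in both groups.

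Other class I genes of the H2 region were measured from a list of 24, of which 18 were in the table and 10 were tested. H2-T10, a T-region gene annotated as a transcribed pseudogene 0.80 Mb from H2-Q1, was the 1 that passed, with a log2 fold change of 1.98 ± 0.57 (SE; edgeR adjusted p = 0.0254). It had 1.32 to 11.7 CPM in KO (median 7.08) and 0.446 to 44.7 CPM in WT (median 0.996). Both WT libraries above the KO range, ZT16 replicates 3 and 4 with 36.3 and 44.7 CPM, were those richest in T cell genes. Rag1, a gene of immature T cells in the thymus, had 472 and 587 CPM in these libraries, against a WT median of 0 CPM. For H2-T10, 15 of 21 WT libraries lay below the lowest KO library. That KO library, ZT8 replicate 2 with 1.32 CPM, and the next lowest, ZT16 replicate 2 with 1.82 CPM and ZT20 replicate 4 with 2.49 CPM, were the 3 KO libraries lowest in H2-Q1. The call depended on the time term: without one the log2 fold change of H2-T10 was 0.47 (edgeR adjusted p = 0.701), and with a cosine time term it was 1.41 (edgeR adjusted p = 0.174), and with the other time label of the 3 unclear libraries 1.43 (edgeR adjusted p = 0.203). The part of T cells in the H2-T10 result was not tested beyond the fits with a T cell score or without the T cell-rich libraries, where the call held.

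Genes that start within 1 Mb of H2-Q1 were called at about the rate of all genes. Members aside, 6 of 101 tested were called (5.94%), against 8.27% on chromosome 17 and 7.69% of all genes. Higher in KO were H2-T10, H2-Ea, C2 and Gm8801, and lower were Agpat1 and Csnk2b. C2, a complement protease, had 21.0 ± 5.90 CPM in KO and 14.2 ± 4.43 CPM in WT (log2 fold change 0.56 ± 0.11, edgeR adjusted p = 0.000787). Gm8801, annotated as a transcribed pseudogene, had 1.03 to 5.23 CPM in KO and 0 to 2.52 CPM in WT (log2 fold change 2.03 ± 0.48, edgeR adjusted p = 0.00606). The falls were small, with log2 fold changes of -0.13 ± 0.04 for Agpat1, a lipid acyltransferase (edgeR adjusted p = 0.0189), and -0.12 ± 0.04 for Csnk2b, the regulatory subunit of casein kinase 2 (edgeR adjusted p = 0.0424). The Csnk2b call held in 12 of 39 fits with a library left out, and the Agpat1 call was lost without WT ZT8 replicate 1 (log2 fold change -0.10, edgeR adjusted p = 0.0643). Without the T cell-rich libraries, which leaves fewer samples, the log2 fold changes were 0.61 for C2, 2.58 for Gm8801, -0.14 for Agpat1 and -0.11 for Csnk2b, and none was called (edgeR adjusted p = 0.0606, 0.0507, 0.113 and 0.272).

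H2-Ea, the class II E alpha chain gene 0.98 Mb from H2-Q1, is silent in C57BL/6 mice through a promoter deletion and is transcribed in several other strains, and the annotation lists it as a pseudogene. It had 261 counts in KO, spread over 13 of 18 libraries, and 0 counts in all 21 WT libraries. H2-Ea entered the tests only through its KO counts, so its call above is a description and no p-value is given. Taking 2 counts as 1 read pair and a floor of 3 read pairs over the WT group, H2-Ea was at least 49.7-fold higher in KO. No KO library exceeded 0.941 CPM. The 5 KO libraries without a count were ZT16 replicate 1 and 4 of the libraries within the WT range of H2-Q1 (ZT8 replicate 2, ZT20 replicate 4, ZT16 replicate 3 and ZT0 replicate 3).

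Genes that act with class I were examined from lists. Of 14 class I-like genes outside H2, 12 were tested, and 2 passed. Raet1e, a ligand of the activating receptor NKG2D, rose to 0.957 to 3.78 CPM in KO, against 0 to 1.48 CPM in WT (log2 fold change 1.89 ± 0.45, edgeR adjusted p = 0.00547), with 12 of 18 KO libraries above every WT library. H60b, another NKG2D ligand, fell to 0.226 to 1.70 CPM in KO, against 0.792 to 2.64 CPM in WT (log2 fold change -0.97 ± 0.18, edgeR adjusted p = 0.000508). Among 13 genes of peptide processing and loading, such as Tap1, Tap2 and Psmb8, 0 were higher and 1 was lower in KO. That gene was Calr, the chaperone calreticulin, with 488 ± 85.6 CPM in KO and 586 ± 122 CPM in WT (log2 fold change -0.24 ± 0.07, edgeR adjusted p = 0.0176). It was not called without WT ZT8 replicate 1 (log2 fold change -0.20, edgeR adjusted p = 0.0595), without the T cell-rich libraries (-0.20, 0.187) or with no time term (-0.27, 0.0583).

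None of 8 transcription factors of class I (Nlrc5, Rfx5, Rfxap, Rfxank, Irf1, Irf2, Nfkb1 and Rela), 22 interferon response genes and 11 class II genes passed in edgeR, with median log2 fold changes of 0.07, 0.18 and 0.45. Interferon response genes summed to 175 to 480 CPM in KO and 159 to 347 CPM in WT, and class II genes to 197 to 852 CPM in KO and 106 to 861 CPM in WT. Among marker lists, 0 of 20 T cell, 0 of 7 B cell, 0 of 7 natural killer cell, 0 of 10 macrophage and 0 of 9 endothelial genes passed. Of all genes tested, 7.69% were called, so 0 calls in lists this short do not show equal levels. The T cell list had a median log2 fold change of 1.05, above the other lists tested. Of 7 skeletal muscle genes tested, Myh1 fell (1.94 ± 0.560 CPM in KO, 2.74 ± 0.749 CPM in WT; log2 fold change -0.47 ± 0.14, edgeR adjusted p = 0.0337). Its call held in 7 of 12 alternative fits and 32 of 39 fits with a library left out, and its log2 fold change was -0.31 with 4 tissue scores as covariates (edgeR adjusted p = 0.139). Thyroid follicle and fat lists had 0 called of 9 and 0 of 7. In pooled glands, fewer cells of a type and less RNA per cell cannot be told apart.

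Of the 10 members, 6 followed the T cell genes across libraries by Pearson r and 4 did not pass. The relation was not computed for genes outside the members, so this count has no background share and nothing particular to class I is read from it. The T cell score was 0.87 ± 2.10 in KO (SD, n = 18) and -0.15 ± 2.71 in WT (SD, n = 21), a difference of 1.02 that did not pass a two-sided permutation test with 100000 resamples (p = 0.203). Relations of 10 members and the heavy chain sum with the score were computed over all, KO and WT libraries, 33 in all, and p-values were adjusted over them. H2-Q7 followed the score most closely over the 39 libraries (Pearson r = 0.86, permutation p = 1e-05, the smallest the resamples can give, adjusted p = 4.71e-05; Spearman rho = 0.83). Its r was 0.79 in KO (permutation, adjusted p = 0.000183) and 0.89 in WT (permutation, adjusted p = 4.71e-05), and 0.81 without the 2 libraries farthest from the median score.

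B2m (r = 0.71, rho = 0.55), H2-Q6 (r = 0.68, rho = 0.62) and H2-D1 (r = 0.66, rho = 0.57) followed, each with an adjusted permutation p of 4.71e-05 for r. H2-Q4 had r = 0.57 (adjusted permutation p = 0.00045) and H2-K1 r = 0.48 (adjusted permutation p = 0.00476). For H2-K1 rho was 0.36 and did not pass (adjusted permutation p = 0.0583). H2-Q1 (r = 0.35, adjusted permutation p = 0.0572), H2-T22 (r = 0.19), H2-T23 (r = 0.15) and H2-Q2 (r = -0.11) did not pass. Without the 2 libraries farthest from the median score, r was 0.59 for B2m, 0.62 for H2-Q6, 0.57 for H2-D1, 0.54 for H2-Q4 and 0.30 for H2-K1.

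The relation was also computed within each genotype. H2-K1 had r = 0.38 in KO and 0.73 in WT, H2-D1 0.34 in KO and 0.83 in WT, H2-Q4 0.39 in KO and 0.69 in WT, and B2m 0.49 in KO and 0.88 in WT. In WT these 4 passed (adjusted permutation p from 4.71e-05 to 0.00157) and in KO they did not, and the difference between the genotypes was not tested. H2-Q6 had r = 0.68 in KO and 0.68 in WT and passed in both, though its r in KO was 0.39 without the 2 KO libraries farthest from the median score. The T cell-rich libraries carried much of the pattern: without them r was 0.04 for H2-K1, 0.30 for H2-D1, 0.37 for H2-Q4 and 0.37 for B2m, with unadjusted permutation p from 0.0558 to 0.856. H2-Q7 (r = 0.74, unadjusted permutation p = 2e-05) and H2-Q6 (r = 0.42, unadjusted permutation p = 0.0319) still followed the score. For the heavy chain sum r was 0.61 over all libraries, 0.45 in KO, 0.75 in WT and 0.19 without the T cell-rich libraries.

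**Figure D4:**
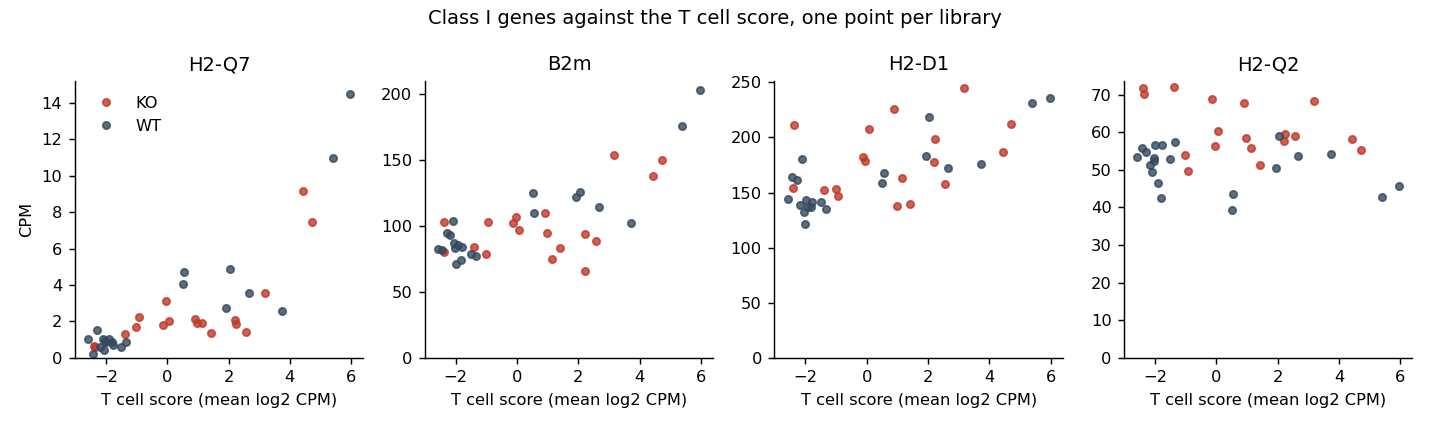
CPM of H2-Q7, B2m, H2-D1 and H2-Q2 against the T cell score (mean log2 CPM of 20 T cell genes), 1 point per library, KO in red and WT in dark blue. H2-Q7 climbs with the score in both genotypes (r = 0.86 over all), whereas H2-Q2 shows no such slope (r = -0.11).

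Promoter sequence was examined for the elements through which class I genes answer NF-kB and interferon. RefSeq (GRCm38.p6) windows from 250 bases before to 50 after the start were found for 9 of the 10 members, all but H2-Q1. All motifs were searched on both strands. The NF-kB motif GGGATTCCC lay in the windows of 4 members (H2-K1, H2-D1, H2-Q6 and H2-Q7) and in 0.35% of all 32851 windows. Only this exact spelling of the NF-kB site was searched, so a window counted without it may hold another spelling. The interferon element was searched as GAANNGAAA, in 5 members (H2-K1, H2-D1, H2-Q4, H2-Q6 and H2-Q7) and 7.52% of all windows, and as GAAANNGAA, in 3 members (B2m, H2-T22 and H2-T23) and 8.56% of all windows. The 2 spellings can overlap, and 14.85% of all windows held at least 1 of them. H2-Q2 was the 1 member with a window and neither spelling. CACGTG, the E-box that BMAL1 binds with its partner, was in 0 members and 7.15% of all windows, and CCAAT was in 9 members and 37.41% of all windows.

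The windows of H2-Q7 (chr17:35438905-35439204), B2m (chr2:122147437-122147736) and H2-Q2 (chr17:35342057-35342356) are shown as examples. Each is given 5′ to 3′ on the plus strand, the coding strand of all 3 genes. Capitals mark the NF-kB motif and the interferon spellings.
H2-Q7: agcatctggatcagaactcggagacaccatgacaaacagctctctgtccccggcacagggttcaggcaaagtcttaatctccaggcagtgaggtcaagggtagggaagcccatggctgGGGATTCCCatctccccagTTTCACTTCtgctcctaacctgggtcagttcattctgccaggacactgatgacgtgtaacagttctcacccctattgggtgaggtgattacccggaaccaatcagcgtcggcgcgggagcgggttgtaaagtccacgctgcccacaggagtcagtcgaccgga
B2m: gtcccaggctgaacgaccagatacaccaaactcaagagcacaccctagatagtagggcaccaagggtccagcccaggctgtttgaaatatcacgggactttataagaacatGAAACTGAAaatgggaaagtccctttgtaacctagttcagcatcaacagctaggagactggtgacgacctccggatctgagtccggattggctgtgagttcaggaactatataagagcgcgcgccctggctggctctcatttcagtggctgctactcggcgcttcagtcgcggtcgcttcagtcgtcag
H2-Q2: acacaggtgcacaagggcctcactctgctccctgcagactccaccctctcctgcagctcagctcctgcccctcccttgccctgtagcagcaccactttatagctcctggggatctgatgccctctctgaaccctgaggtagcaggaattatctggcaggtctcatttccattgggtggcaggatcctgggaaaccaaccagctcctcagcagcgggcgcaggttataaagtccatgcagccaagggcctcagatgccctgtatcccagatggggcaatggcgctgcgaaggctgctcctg
Of the exact spellings searched, H2-Q7 holds the NF-kB motif and an interferon spelling, B2m an interferon spelling, and H2-Q2 neither. Of the 3 members with GAAANNGAA, B2m had an r of 0.71 with the T cell score, H2-T22 0.19 and H2-T23 0.15. A link between the spellings and the score was not tested. A match is a description of the sequence and not a bound site.

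Time of day was the measure the choice of members did not use. None of the 10 members had a 24 h cosine rhythm past the threshold in KO or in WT by edgeR, where 0.0779% of genes tested in KO and 0.248% in WT passed, and none differed in rhythm between genotypes, where 0.0161% of all genes passed. At an unadjusted p below 0.05, 1 member, H2-Q2, passed in KO, where 8.27% of genes did. In WT, 5 members did (H2-K1, H2-D1, H2-Q6, H2-T22 and H2-T23), where 14.9% of genes did. T cell content was uneven over WT times, with scores of 5.39 and 5.97 in ZT16 replicates 3 and 4 and -2.18 to -1.78 at ZT4. In WT, r with that score was 0.73 for H2-K1, 0.83 for H2-D1 and 0.68 for H2-Q6. Over 6 alternative fits, which included the score as a covariate, WT amplitudes were 0.08 to 0.15 for H2-K1 and 0.08 to 0.20 for H2-D1. The part of T cells in these unadjusted p-values was not tested further.

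H2-T22 and H2-T23 were the closest to a rhythm. H2-T23 had 65.7 to 88.5 CPM at ZT8 (3 libraries) and 66.3 to 86.8 CPM at ZT20 (4 libraries) in KO, and 56.6 to 71.1 CPM at ZT8 (2 libraries) and 96.9 to 126 CPM at ZT20 (4 libraries) in WT. In WT these were the times of the lowest and highest mean and their ranges did not overlap, and in KO the libraries of both times overlapped. The times were picked by the WT means of H2-T23, so this contrast carries no test. In KO its mean was lowest at ZT0 (57.4 CPM) and highest at ZT12 (89.3 CPM). The fitted amplitude of H2-T23 was 0.26 in KO (edgeR adjusted p = 0.750) and 0.35 in WT (edgeR adjusted p = 0.149), on the log2 scale. H2-T22 had 37.7 to 47.9 CPM at ZT8 and 31.7 to 43.5 CPM at ZT20 in KO, and 35.0 to 38.6 CPM at ZT8 and 48.0 to 54.7 CPM at ZT20 in WT. Its amplitude was 0.17 in KO (edgeR adjusted p = 0.780) and 0.24 in WT (edgeR adjusted p = 0.156). DESeq2 called both rhythmic in WT (adjusted p = 0.0326 for H2-T22 and 0.0172 for H2-T23). The interaction of genotype with time had an unadjusted p of 0.0101 for H2-T22 and 0.0192 for H2-T23 in the edgeR fit, where 3.69% of genes were below 0.05, and an adjusted p of 1.00 for both.

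**Figure D5:**
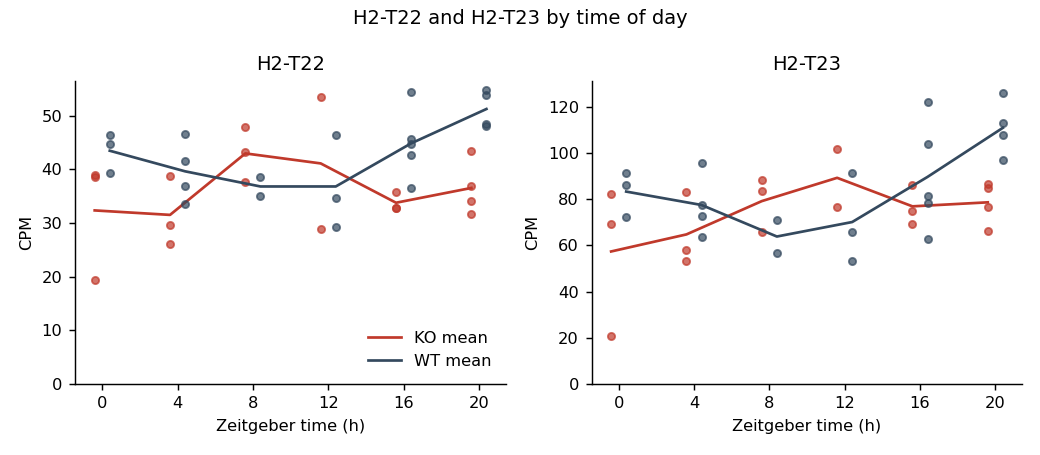
H2-T22 (left) and H2-T23 (right) in CPM by zeitgeber time in hours, 1 point per library with lines through the means, KO in red shifted left of WT in dark blue. WT means are highest at ZT20, at 51.2 CPM for H2-T22 and 111 CPM for H2-T23, and KO means at that time are 36.5 and 78.7 CPM.

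Genes whose log2 CPM followed H2-Q1 most closely over the 39 libraries, among 13720 compared, were Hmga1b (r = 0.86), Gm8801 (r = 0.82), Gm10499 (r = 0.81), Apobec3 (r = 0.78) and H2-T10 (r = 0.77). These libraries differ in genotype, so a gene that differs by genotype tends to score high. Gm8801, Gm10499 and H2-T10 lie on chromosome 17 with H2-Q1, Hmga1b on chromosome 11 and Apobec3, a cytidine deaminase that restricts retroviruses, on chromosome 15. Apobec3 had 21.8 to 63.4 CPM in KO and 3.19 to 33.6 CPM in WT (log2 fold change 1.45 ± 0.20, edgeR adjusted p = 7.88e-06). Hmga1b had 0.744 to 3.03 CPM in KO and 0 to 3.52 CPM in WT (log2 fold change 2.09 ± 0.49, edgeR adjusted p = 0.005). Gm10499, with 1.83 ± 0.875 CPM in KO and 0.930 ± 1.12 CPM in WT, did not pass (log2 fold change 1.20 ± 0.55, edgeR adjusted p = 0.197), but was called without the T cell-rich libraries (2.53, edgeR adjusted p = 0.0374).

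The heavy chain sum was followed most closely by other genes: Ctsl (r = 0.79), a lysosomal protease, Irf8 (r = 0.75), an interferon regulatory factor of myeloid and lymphoid cells, Cdca4 (r = 0.74), Birc3 (r = 0.72), an inhibitor of apoptosis in NF-kB signalling, and H2-Ab1 (r = 0.72), a class II chain. None of these 5 passed the genotype test, with edgeR adjusted p-values of 0.607 to 0.979.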

How the data were processed

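The authors deposited raw counts, whole numbers per gene and library, in 1 table. Per the submitters' processing notes, the tools were DESeq2 1.30.1, featureCounts 2.0.1 and STAR 2.7.8a and the build mm10, with no role stated. Strand setting, annotation and the treatment of reads with several matches: not given in the sources used here. Per the labels' protocols, libraries were made from total RNA with a stranded, ribosomal RNA depleting kit. Of counts from 1 to 10, 89.6% were even, so read pairs appear to be counted as 2. Symbols and positions came from a RefSeq gene table of GRCm38.p6, which matched 25275 of 27179 IDs, with 97.99% of counts.

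CPM used TMM factors (0.837 to 1.08). Tests used edgeR 4.0.16 in R 4.3.3: a robust quasi-likelihood fit over 18661 genes passing filterByExpr, with time as a factor of 6 levels, and 2 cosine terms of 24 h for rhythms (18131 genes in WT, 17969 in KO), each with Benjamini-Hochberg adjustment over all genes tested. Calls are at an adjusted p below 0.05. For 3 libraries titled ZT16 another label gave ZT20; titles were used. Log2 CPM had a prior count of 2. P-values measure the spread between pools of 2 mice. The fits were tested on simulated counts.

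The members and gene lists were chosen with earlier results of these data known. Named genes were the members, up to 5 genes of smallest p per list, of which the called ones are described (1 gene is not reported here), up to 6 within 1 Mb of H2-Q1, and the 5 genes most like H2-Q1 and the heavy chain sum. Transcripts were compared with Biopython 1.88 on GENCODE M21. Alternatives were DESeq2 1.42.0, its size factors, other count filters, time terms and time labels, a replicate block, T cell and tissue scores as covariates, no T cell-rich libraries, and each library left out.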

Additional observations from a re-analysis of the deposited data

Results flagged for a closer look

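For each member and the heavy chain sum, 44 groups of 4 or 5 libraries of 1 genotype and time were searched for a library far from the others, and 3 were found. Chance alone flags about 1 in 20 groups. H2-Q7 was 7.47 CPM in KO ZT20 replicate 2, against 1.36 to 2.13 CPM in the other KO libraries of that time. H2-Q6 was 5.91 CPM in that library, against 0.892 to 1.43 CPM in the others. It also held the highest T cell score of any KO library, 4.72, and the highest H2-Q1 of all, 11.1 CPM. H2-Q1 was 0.333 CPM in WT ZT20 replicate 2, against 0 to 0.0494 CPM in the other WT libraries of that time; its T cell score was 3.73. The part of T cells in these 3 values was not tested.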

How the results depend on the processing

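Genes past the genotype test numbered 1435 and 1125 to 1735 with each library left out, but 454 without the 12 T cell-rich libraries. Rhythmic genes in KO numbered 14, 85 by DESeq2, 8 with the other time label, 9 without the 3 libraries of unclear time and 7 to 19 with a library left out. In WT they numbered 45, 342 by DESeq2, 90 with the T cell score and 27 to 63 with a library left out. Calls within 1 Mb of H2-Q1 numbered 9, 17 by DESeq2, 14 with 4 tissue scores and 5 within 0.5 Mb. The heavy chain sum's r with the T cell score was 0.61 and 0.19 without the T cell-rich libraries. Whether replicate numbers pair the samples is not settled (17 pairs, 8 with a correlation above 0.1, range -0.293 to 0.51). With the number as a replicate block, calls were 1271 for genotype, 7 for rhythm in KO and 27 in WT.

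Signs turned only for values that never passed. H2-Q6 (0.02) was -0.09 with no time term, -0.32 with the T cell score, -0.21 with 4 scores, -0.09 without the T cell-rich libraries and -0.15 to 0.10 with a library left out. H2-Q7 (0.29) was -0.12, -0.12 and -0.14 with the first 3 of these. B2m (-0.02) was 0.04 without the libraries of unclear time, 0.01 with the replicate block, 0.03 without the T cell-rich libraries and -0.10 to 0.03 with a library left out. The r of H2-T22 with the T cell score was -0.10 without the T cell-rich libraries. The cause of these shifts was not tested.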
